A study of Mus musculus with 18 samples.

Results

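The liver carboxylesterases are serine hydrolases that cleave esters, among them stored triacylglycerol, cholesteryl esters, drugs and other foreign compounds. The 10 members described here, Ces1b, Ces1c, Ces1d, Ces1e, Ces1f, Ces1g, Ces2a, Ces2c, Ces2e and Ces3a, were taken by gene symbol from the 16245 genes of the count table, and all 10 were found and tested. The table also holds 9 other carboxylesterase genes, which are given beside them. Bulk liver RNA was sequenced from male wild-type C57BL/6 mice (C57BL/6J in the study's methods) that were moved to a diet inducing non-alcoholic steatohepatitis (NASH) and to thermoneutral housing (29 °C) at 8 weeks of age. Single-housed mice received vehicle, received recombinant human GDF15 subcutaneously once a day, or were pair-fed, each group holding 6 samples, and they were killed in the fed state. GDF15 is a circulating hormone that acts through the hindbrain receptor GFRAL and lowers food intake. Each day's ration of the pair-fed mice was set by what GDF15-treated mice had eaten, so that GDF15 against pair-fed asks which differences go beyond the lower food intake. The sample labels list daily doses for the whole protocol, the lowest 0.3 and the highest 5 nmol/kg with 1 nmol/kg in between, and do not tie a dose to a sample.

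Most mammalian carboxylesterases enter the endoplasmic reticulum, and many stay there because their last residues form a retention signal of histidine, any residue, glutamate and leucine. Mouse differs from human in that a carboxylesterase is also abundant in plasma, the product of Ces1c, which is made in the liver. Within the hepatocyte, Ces1d (also called triacylglycerol hydrolase) mobilizes stored lipid for very-low-density lipoprotein (VLDL), and Ces2 enzymes hydrolyse acylglycerols and prodrugs.

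All 10 members lie on chromosome 8 in mm10 coordinates. The 6 Ces1 members follow each other on the minus strand, from Ces1b (chr8:93056728-93080017) and its neighbour Ces1c (chr8:93099015-93131283) to Ces1g (chr8:93302369-93337308). The 3 Ces2 members lie on the plus strand, from Ces2a (chr8:104734003-104741634) to Ces2e (chr8:104926260-104934672), followed by Ces3a (chr8:105048601-105058413). Among members, identity of the coding bases ran from 71.4% to 88.8% within Ces1, from 82.2% to 83.5% within Ces2 and from 53.3% to 57.8% between subfamilies. The closest pair within the list was Ces1b and Ces1c, at 88.8%. Ces3a and Ces3b, which is not a member, were 95.3% identical, so reads could be assigned to the wrong gene of that pair.

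The ends of the coding sequences are shown because they separate the members whose last 4 codons fit the retention signal from those whose last 4 do not. The last 30 coding bases before the stop codon are given from the GENCODE transcripts on mm10, with the last 4 codons in capitals.
Ces1b: acagaccctactgagcacAGAGAACACAAA
Ces1c: acagaccctactgaacacACAGAACACAAA
Ces1d: aggccatcccacagggaaCATGTTGAGCTC
Ces1e: aagcaactgccgacagaaCACACTGAGCTG
Ces1f: aaacaaccccagccatacCACAATGAGCTG
Ces1g: aggtcatcccatagggaaCATGTTGAACTG
Ces2a: aagggttctcaggacaagCATGCAGAGCTG
Ces2c: aaggcttctcaggacaagCACAGGGAGCTT
Ces2e: aaggggtctcaggagaggCACAAAGAGTTG
Ces3a: cagagaagcaggaaagttCCAGAGGAGCTC
Codons for histidine, any residue, glutamate and leucine ended 7 of the 10 coding sequences. The 3 without them were Ces1b, Ces1c and Ces3a. The Ces1b and Ces1c ends resemble each other and end in codons for histidine and lysine, and Ces3a carries a proline codon in place of the histidine codon.

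The RefSeq promoter table (GRCm38.p6) matched 7 of the 10 members, and Ces1d, Ces1f and Ces3a were not matched. The 250 bases before the start sites of Ces1b (chr8:93080018-93080267) and Ces1c (chr8:93131284-93131533), both on the minus strand, are printed because these neighbours shared a run of 58 identical bases, in capitals.
Ces1b: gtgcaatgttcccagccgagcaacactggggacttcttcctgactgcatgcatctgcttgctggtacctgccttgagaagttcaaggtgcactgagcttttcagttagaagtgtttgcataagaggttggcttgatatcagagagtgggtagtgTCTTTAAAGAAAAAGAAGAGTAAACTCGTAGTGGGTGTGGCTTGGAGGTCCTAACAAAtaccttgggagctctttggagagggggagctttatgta
Ces1c: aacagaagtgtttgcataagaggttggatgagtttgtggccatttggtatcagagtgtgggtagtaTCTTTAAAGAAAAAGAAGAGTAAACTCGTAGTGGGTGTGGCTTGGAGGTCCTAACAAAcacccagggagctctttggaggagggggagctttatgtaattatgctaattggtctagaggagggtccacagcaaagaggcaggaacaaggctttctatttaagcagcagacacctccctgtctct
The shared run began 96 bases before the annotated start of Ces1b and 184 bases before that of Ces1c. The longest run shared by any other pair of the 7 promoters was 17 bases, in Ces2a and Ces2e. Of the motifs searched on both strands of these 250 bases, AGGTCA was in Ces2a alone among the 7 and in 14.02% of all promoters, TATAAA was in Ces1g alone and in 12.37% of all promoters, and TGACNNNGC was in none of the 7 and in 10.16% of all promoters. A match describes letters and not a bound site.

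Library totals ran from 16508864 to 35301853 counts, and the 3 largest were pair-fed replicates 4 to 6. Levels below are normalized counts, which are estimated counts divided by the DESeq2 size factor of the sample. Differences are DESeq2 log2 fold changes (log2FC) with their standard error (SE), fitted over all 18 samples, and p-values are adjusted over all genes by the method of Benjamini and Hochberg. A gene was counted as different at an adjusted p under 0.05. The study's stricter rule for liver, which also asks for an absolute log2FC above 1, is given beside it.

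Vehicle livers were used to rank the members, per kilobase (kb) of transcript, since levels can be compared between genes only per length. Ces1c, the plasma enzyme, ranked first with a mean of 19448 normalized counts per kb ± 1660 (SD, n = 6). Ces3a, a liver esterase, followed at 12238 ± 2365 per kb. Both stood above all later members, with no overlap between the 6 values of Ces1c, Ces3a and Ces1d. Ces1d, the triacylglycerol hydrolase, had 5027 ± 503 per kb and overlapped Ces1f, a related lipid hydrolase, at 3888 ± 381. Ces1g, an esterase with a known role in liver lipid handling, and Ces2e, a drug and acylglycerol hydrolase, overlapped at 2098 ± 262 and 2046 ± 188 per kb. Ces1e, also known as egasyn, which holds beta-glucuronidase in the endoplasmic reticulum, was at 1420 ± 184 per kb. Ces2a at 831 ± 163, Ces2c at 502 ± 88.6 and Ces1b at 370 ± 70.1 per kb closed the order, each overlapping its neighbour.

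In GDF15 against vehicle, Ces1b, Ces1c, Ces2a and Ces3a were higher, Ces2e was lower, and the other members did not pass the test. Thus 5 of the 10 members differed, against 33.3% of all genes tested. Of these, 4 were higher and 1 was lower, against 15.8% of all genes higher and 17.5% lower. Ces2a was the one member past the study's rule with both thresholds, which 6.27% of all genes passed. The median log2FC of the members was 0.17, and that of all genes tested was 0.00. In all 6 GDF15 samples, Ces1c and Ces2a were above each of the 12 other samples, and 7.75% of all genes that reached 10 counts in 6 or more samples lay wholly on one side in this way.

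Against pair-fed, 5 members again differed, compared with 27.1% of all genes tested. Ces1b, Ces1c and Ces2a were higher (13.3% of all genes) and Ces2c and Ces2e were lower (13.8% of all genes). The same 5 had an unadjusted p under 0.05, and the largest absolute log2FC was 0.87, in Ces2a. By DESeq2, 0 members therefore passed both thresholds, and edgeR also gave 0, while 3.37% of all genes passed. The median log2FC was 0.07, with all genes at 0.00. This comparison uses the same GDF15 samples as the first. Between pair-fed and vehicle, DESeq2 called 0 of the 10 members and 0% of all genes; 0 members had an unadjusted p under 0.05, and edgeR gave 0 as well. The largest absolute log2FC of a member there was 0.20, in Ces2c, with a 95% interval of -0.20 to 0.59.

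**Figure D1:**
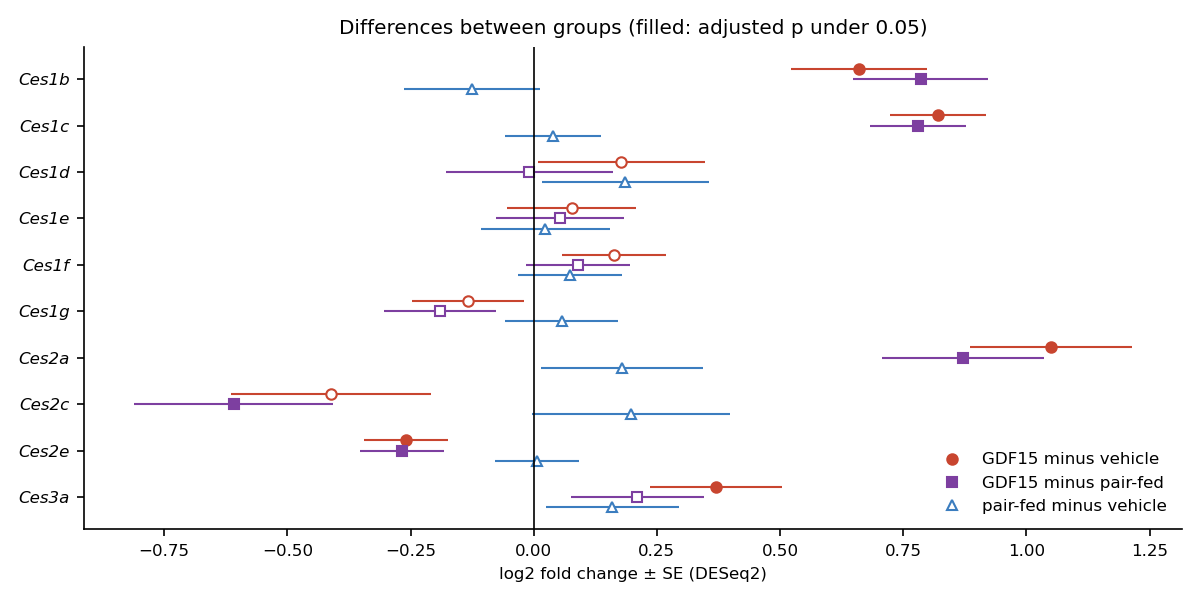
Log2 fold change (horizontal axis, DESeq2, bars ± SE) of each member for GDF15 minus vehicle (circles), GDF15 minus pair-fed (squares) and pair-fed minus vehicle (triangles), with filled symbols at an adjusted p under 0.05. Ces1b, Ces1c and Ces2a lie to the right in both comparisons with GDF15, Ces2e lies to the left in both, and no pair-fed triangle is filled.

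Ces1c rose in the GDF15 group with the lowest adjusted p of any member. Vehicle livers held normalized counts between 31733 and 38572 (median 36662). Pair-fed livers held between 26048 and 43179 (median 37540), and GDF15 livers between 58967 and 67972 (median 61926). The GDF15 values did not overlap those of either control group, which overlapped each other. Against vehicle the log2FC was 0.82 ± 0.10 (SE), a 1.77-fold higher level, with an adjusted p of 6.21e-15 by DESeq2. Against pair-fed it was 0.78 ± 0.10, or 1.72-fold, with an adjusted p of 2.36e-13 by DESeq2. Pair-fed minus vehicle was 0.04, with a 95% interval of -0.15 to 0.23.

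Ces1b, the neighbour of Ces1c with the similar coding end, moved the same way at a far lower level. Its normalized count ran from 597 to 986 (median 691) in vehicle, from 527 to 879 (median 627) in pair-fed and from 875 to 1331 (median 1163) in GDF15 livers. GDF15 replicate 4, at 875, lay below vehicle replicate 6 and just below pair-fed replicate 3, and the other 5 GDF15 samples lay above all controls. The log2FC was 0.66 ± 0.14 against vehicle (adjusted p = 2.13e-05, DESeq2) and 0.79 ± 0.14 against pair-fed (adjusted p = 4.28e-07, DESeq2). Because the coding bases of the pair are 88.8% identical, their counts were also summed. The sum was 36278 ± 3105 (SD, n = 6) in vehicle, 37204 ± 6309 in pair-fed and 63906 ± 3176 in GDF15 livers, which again did not overlap the controls. Ces1c made up nearly all of that sum, which therefore says little of Ces1b on its own, and the share of reads exchanged between the pair was not tested.

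The other 4 Ces1 members, all with the retention-type ending, gave a different picture. Summed, Ces1d, Ces1e, Ces1f and Ces1g were at 25516 ± 1973 in vehicle, 27541 ± 5113 in pair-fed and 27443 ± 4758 in GDF15 livers, and the groups overlapped. None of the 4 passed the test in any of the 3 comparisons, although Ces1g passed against pair-fed without GDF15 replicate 3, at -0.28 (adjusted p = 0.0325, DESeq2). Ces1d had a log2FC of 0.18 against vehicle (95% interval -0.15 to 0.51) and -0.01 against pair-fed (-0.34 to 0.32). Ces1e had 0.08 (-0.18 to 0.33) and 0.05 (-0.20 to 0.31), Ces1f had 0.16 (-0.05 to 0.37) and 0.09 (-0.12 to 0.30), and Ces1g had -0.13 (-0.36 to 0.09) and -0.19 (-0.42 to 0.03) in the same order. These intervals leave room for moderate changes, and the difference between these 4 and the Ces1b and Ces1c pair was not itself tested.

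For Ces1d, the pair-fed samples differed by replicate number, which the labels do not tie to a batch. Its normalized count in pair-fed replicates 1 to 3 ran from 8003 to 10061, and in pair-fed replicates 4 to 6 from 11753 to 16483. The GDF15 values of the same sets overlapped, at 9678 to 15006 and 7933 to 12856. Vehicle values overlapped too, at 8563 to 10503 and 10040 to 11518. Fitted on replicates 1 to 3 of all groups, GDF15 minus pair-fed was 0.47 ± 0.16 (adjusted p = 0.020, DESeq2). On replicates 4 to 6 it was -0.40 ± 0.18 (adjusted p = 0.107, DESeq2). Ces1g split as well, with 0.08 ± 0.12 on replicates 1 to 3 and -0.47 ± 0.13 on replicates 4 to 6 (adjusted p = 0.00235, DESeq2). Ces1g split against vehicle too, at 0.18 ± 0.12 on replicates 1 to 3. On replicates 4 to 6 it was -0.46 ± 0.12 against vehicle (adjusted p = 0.00265, DESeq2). For Ces1d those values against vehicle were 0.35 ± 0.16 and 0.01 ± 0.18, and neither passed. Pair-fed replicates 4 to 6 are also the 3 largest libraries, and the part of this in the splits against pair-fed was not tested. Ces1b against pair-fed, Ces1c and Ces2a kept the same direction and passed in both sets, whereas Ces1b against vehicle was 0.51 and did not pass in replicates 4 to 6.

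**Figure D2:**
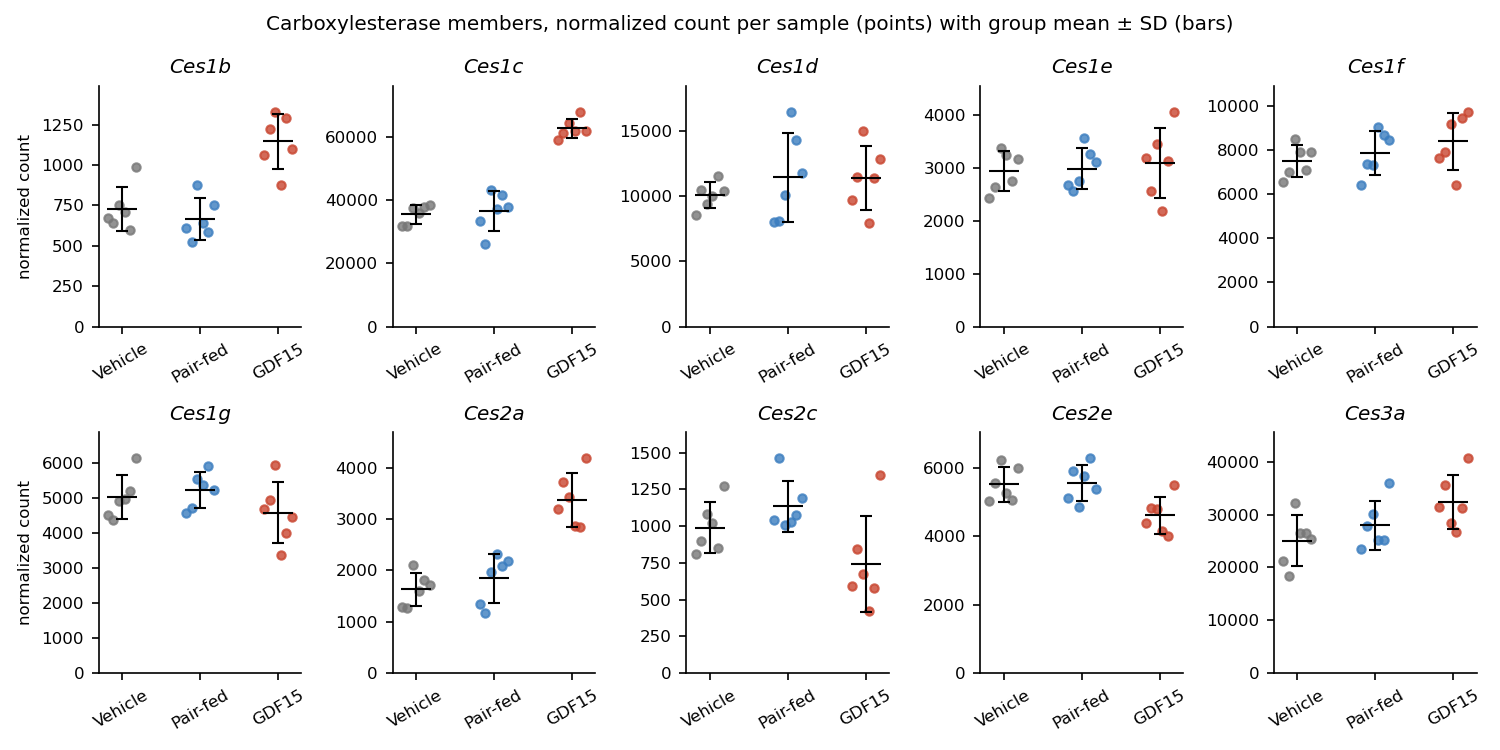
Normalized count (vertical axis, starting at 0) of each member in each sample (points) by group, with the mean and SD of the group (bars, n = 6). In Ces1c and Ces2a the 6 GDF15 points sit above all 12 others, in Ces2c 5 of the 6 GDF15 points sit between 423 and 846 and 1 is at 1345, and in Ces1d the pair-fed points spread from 8003 to 16483.

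Ces2 members went in opposite directions. Ces2a, a hydrolase of acylglycerols and drugs, ran from 1266 to 2096 (median 1658) in vehicle, from 1174 to 2321 (median 2025) in pair-fed and from 2849 to 4184 (median 3313) in GDF15 livers. The lowest GDF15 sample was therefore above the highest control. Its log2FC of 1.05 ± 0.16 against vehicle, 2.07-fold, was the largest of any member (adjusted p = 8.94e-09, DESeq2). Against pair-fed it was 0.87 ± 0.16, 1.83-fold (adjusted p = 3.50e-06, DESeq2). Without GDF15 replicate 6, vehicle replicate 1 or vehicle replicate 2 the log2FC against vehicle fell below 1, to 0.98 at the lowest, while the adjusted p stayed under 0.05.

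Ces2e, by contrast, was lower in GDF15 livers, which ran from 4022 to 5514 (median 4590), than in vehicle (5025 to 6240, median 5408) and pair-fed livers (4848 to 6283, median 5570). The ranges overlapped through GDF15 replicate 6. The change was small, -0.26 ± 0.09 against vehicle (adjusted p = 0.0106, DESeq2) and -0.27 ± 0.09 against pair-fed (adjusted p = 0.00993, DESeq2). It kept its direction and lost its call against both controls when either set of 3 replicates was fitted alone.

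Ces2c, a triacylglycerol hydrolase of liver and intestine, ran from 808 to 1277 (median 959) in vehicle, from 1006 to 1462 (median 1058) in pair-fed and from 423 to 1345 (median 634) in GDF15 livers. GDF15 replicate 6 held the highest of the GDF15 values, and the other 5 lay between 423 and 846. Against pair-fed the log2FC was -0.61 ± 0.20 (adjusted p = 0.0134, DESeq2). Against vehicle it was -0.41 ± 0.20 and did not pass (adjusted p = 0.103, DESeq2), but without GDF15 replicate 6 it was -0.66 ± 0.15 (adjusted p = 0.000222, DESeq2). Without pair-fed replicate 2 the call against pair-fed was lost at -0.52 (adjusted p = 0.0528, DESeq2), and on replicates 4 to 6 alone it was -0.48 ± 0.43 (adjusted p = 0.501, DESeq2). Its coding bases resemble those of Ces2b, which had a mean of only 15.9 normalized counts in vehicle, so their sum followed Ces2c, at 1005 ± 178 in vehicle, 1150 ± 170 in pair-fed and 759 ± 332 in GDF15 livers.

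Ces3a ran from 18337 to 32289 (median 25952) in vehicle, from 23452 to 36082 (median 26525) in pair-fed and from 26674 to 40676 (median 31313) in GDF15 livers, and the 3 groups overlapped. It was higher against vehicle by 0.37 ± 0.13 (adjusted p = 0.0221, DESeq2) and did not pass against pair-fed, at 0.21 ± 0.13 (adjusted p = 0.249, DESeq2). Leaving out vehicle replicate 1, vehicle replicate 2, GDF15 replicate 2 or GDF15 replicate 6 ended the call against vehicle, with log2FC from 0.29 to 0.34 and adjusted p from 0.0553 to 0.0823. Ces3b, its near-identical neighbour, was higher against vehicle by 1.31 ± 0.39 (adjusted p = 0.00426, DESeq2), with means of 2760, 3417 and 6827 normalized counts in vehicle, pair-fed and GDF15 livers. Against pair-fed Ces3b was at 1.00 ± 0.39 (adjusted p = 0.0405, DESeq2), a call that 8 of the 18 fits with 1 sample left out did not keep. Summed, Ces3a and Ces3b were at 27798 ± 6458 in vehicle, 31378 ± 5732 in pair-fed and 39181 ± 7393 in GDF15 livers, and the groups overlapped.

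Of the 9 other carboxylesterase genes, 8 had an adjusted p in the comparisons with GDF15, and of these Ces3b was higher and Ces2h was lower against each control. Ces2h fell by 0.95 on the log2 scale against vehicle (adjusted p = 0.00514, DESeq2) at a mean of only 23.9 normalized counts in vehicle and 12.6 in GDF15 livers. Ces2g, the most abundant of the rest with a mean of 1305 in vehicle, had a log2FC of -0.05 (95% interval -0.17 to 0.08) against vehicle and -0.10 against pair-fed. Ces2b, Ces2d-ps, Ces2f and Ces4a did not pass and had group means between 5.48 and 16.8, and Ces1a did not pass at means between 2.72 and 4.67. Ces1h was at 0 to 4 counts in every sample and received no adjusted p in the comparisons with GDF15.

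The make-up of the carboxylesterase transcripts differed between GDF15 and control livers. Per kb of transcript, Ces1c was 40.7% ± 1.27 (SD, n = 6) of the 10 members in vehicle, 39.1% ± 3.75 in pair-fed and 50.7% ± 3.65 in GDF15 livers, where the lowest sample (45.5%) was above the highest control (43.3%). Ces2e went from 4.30% ± 0.41 in vehicle and 4.08% ± 0.65 in pair-fed to 2.51% ± 0.21 in GDF15 livers, again without overlap. Shares of a whole are not independent, so a larger share of Ces1c lowers the others. The summed normalized count of all 10 was 94974 ± 9821 in vehicle, 101233 ± 11855 in pair-fed and 132432 ± 10139 in GDF15 livers, whose values did not overlap those of either control on this scale. As a share of the library total they did overlap, at 0.440% to 0.505% in vehicle, 0.449% to 0.552% in pair-fed and 0.502% to 0.634% in GDF15 livers. With size factors from hepatocyte markers the log2 difference of the sum was 0.03 against vehicle and -0.10 against pair-fed, in place of 0.48 and 0.39. The 6 Ces1 members together had ratios of 1.48 to vehicle and 1.41 to pair-fed, with no overlap. As a share of the library total the Ces1 sum of GDF15 livers (0.355% to 0.461%) overlapped that of pair-fed livers (0.258% to 0.369%), and with size factors from hepatocyte markers its log2 difference was 0.11 against vehicle and 0.01 against pair-fed. The 3 Ces2 members, where a rise and 2 lower values meet, overlapped at a ratio of 1.07 to vehicle and 1.02 to pair-fed. With size factors from hepatocyte markers they did not overlap. There the Ces2 sum of GDF15 livers (4467 to 8275) lay below that of vehicle (8341 to 9503) and pair-fed livers (8766 to 10731). On that scale the median log2FC of genes that reached 10 counts in 6 or more samples moved too, to -0.45 against vehicle and -0.50 against pair-fed.

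**Figure D3:**
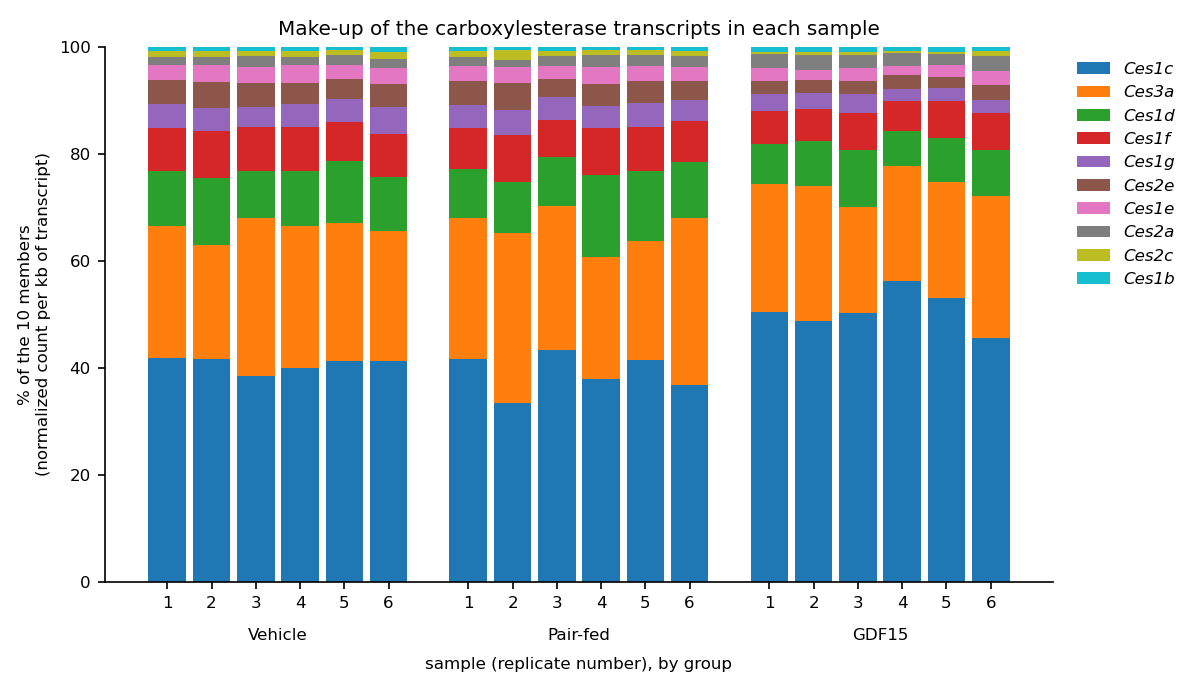
Share of each member in the 10 (vertical axis, per cent of the summed normalized counts per kb of transcript) in each of the 18 samples, by group and replicate number. The lowest part of each bar is Ces1c, which takes 45.5% to 56.2% of the GDF15 bars and 33.3% to 43.3% of the control bars.

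In bulk tissue, fewer cells of a type and less RNA per cell cannot be told apart, and markers of several cell types moved with the GDF15 group. Of 9 hepatocyte markers in the table, 6 were higher and 0 lower against vehicle, with a median log2FC of 0.42. The 9 were Alb, Ttr, Apoa1, Apoa2, Serpina1e, Fgb, Cps1, Ahsg and Hpx. They were not uniform, from 2.46 in Serpina1e to -0.08 in Hpx, and Ttr, Apoa2 and Hpx did not pass. The summed normalized count of the 9 ran from 1673946 to 2096877 in vehicle, from 1530651 to 2276182 in pair-fed and from 2309042 to 2794105 in GDF15 livers. Most of that sum was Alb, with a mean of 1.23e+06 in vehicle and 1.65e+06 in GDF15 livers. Of 10 stellate cell and fibroblast markers, 9 were lower, and their sum ran from 9027 to 15599 in vehicle, from 8110 to 12755 in pair-fed and from 4437 to 6629 in GDF15 livers. Macrophage and leukocyte markers were lower in 7 of 11 (sums of 4651 to 9378, 4594 to 7536 and 3087 to 6208 in the same order) and cholangiocyte markers in 6 of 6 (2372 to 8649, 2159 to 6026 and 1030 to 2097), a sum made up mostly of Spp1, with a mean of 4867 in vehicle and 1227 in GDF15 livers. Endothelial markers had 1 higher and 1 lower of 7 (2822 to 3843, 3164 to 4112 and 2174 to 3904). Adipoq and Plin1, which define adipocytes, stayed below 5 normalized counts in every sample, although Cidea and Cfd were lower and Adrb3 higher, and the 5 adipocyte markers in the table summed to 622 to 1128, 409 to 1188 and 240 to 431. The 3 intestine and kidney markers in the table, 1 of them lower (Fabp2), summed to 2818 to 3445, 2569 to 3064 and 1721 to 2718. That sum was almost wholly Fabp2, with a mean of 3062 in vehicle, where Vil1 had 8.46 and Nphs1 had 5.00. Against pair-fed, 6 of 9 hepatocyte markers were higher, 8 of 10 stellate cell and fibroblast and 6 of 11 macrophage and leukocyte markers were lower, and of the cholangiocyte markers 1 of 6, Spp1, was lower. The part of these cell types in the differences of the members was not tested.

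Ces1d, Ces1e, Ces1f and Ces3a changed sign against vehicle with another scaling. That scaling treats 9 hepatocyte markers as unchanged, although 6 of them were higher against vehicle, so it lowers the log2FC of genes in general. With size factors taken from the 9 hepatocyte markers alone, the median log2FC moved to -0.45 against vehicle and -0.50 against pair-fed. These medians are over genes that reached 10 counts in 6 or more samples. On that scale 2 members were higher against vehicle, Ces1c (0.37) and Ces2a (0.61), and 5 were lower, Ces1e (-0.36), Ces1f (-0.28), Ces1g (-0.57), Ces2c (-0.86) and Ces2e (-0.72), in place of 4 higher and 1 lower. All genes moved with it: 65.1% passed the test, 1.09% as higher and 64.0% as lower, and 14.2% passed both thresholds, so 7 of 10 members is near the share of all genes. Ces1b was at 0.23 and did not pass (adjusted p = 0.206, DESeq2), and Ces3a turned to -0.07. Against pair-fed the same scaling gave 2 higher, Ces1c (0.29) and Ces2a (0.39), and 6 lower, Ces1d (-0.47), Ces1e (-0.43), Ces1f (-0.39), Ces1g (-0.67), Ces2c (-1.12) and Ces2e (-0.77), in place of 3 higher and 2 lower. There 67.2% of all genes passed, 0.716% as higher and 66.5% as lower, and 1909 of 15928 passed both thresholds. Ces1c and Ces2a were thus higher in GDF15 livers on both scales, but on the hepatocyte scale their GDF15 values overlapped those of each control, whereas scaled to the library total they did not.

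**Figure D4:**
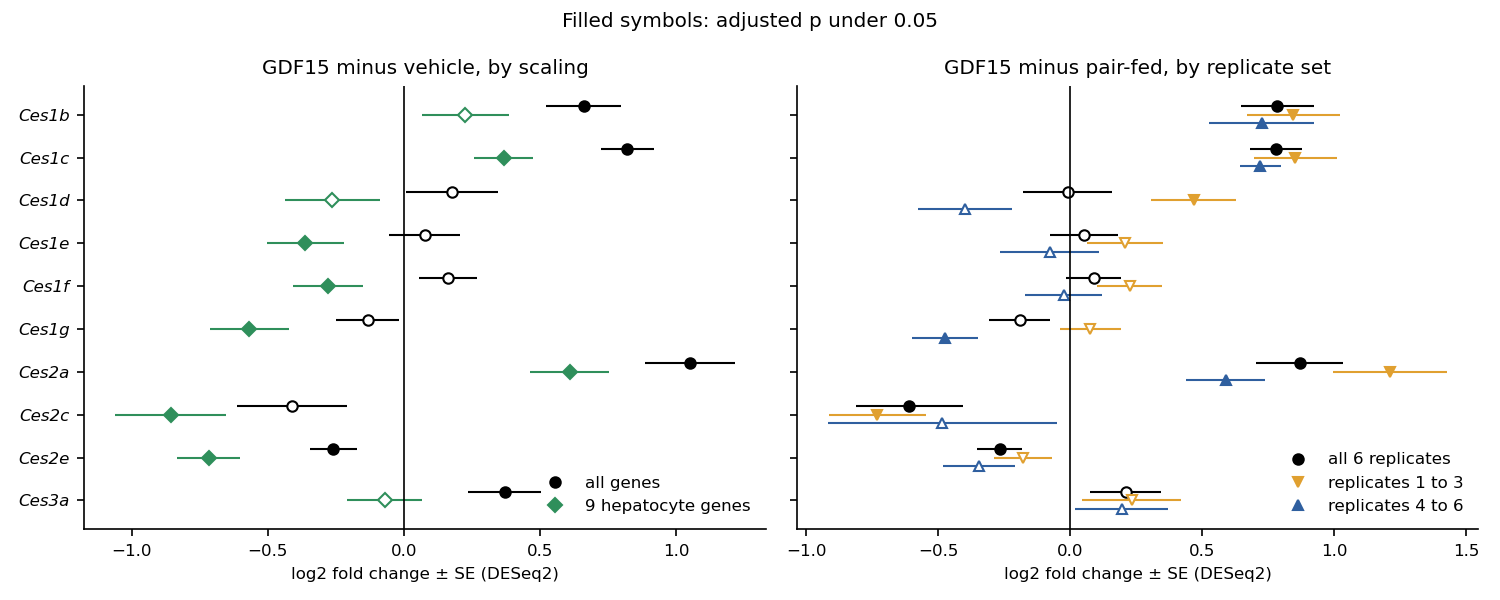
Log2 fold change (horizontal axes, DESeq2, bars ± SE) of each member, filled at an adjusted p under 0.05: left, GDF15 minus vehicle with size factors from all genes (circles) or from 9 hepatocyte markers (diamonds); right, GDF15 minus pair-fed with all 6 replicates (circles), replicates 1 to 3 (downward triangles) or replicates 4 to 6 (upward triangles). On the left each diamond lies to the left of its circle and those of Ces1b, Ces1c and Ces2a stay above 0, and on the right the Ces1d values are 0.47 and -0.40 in the separate sets.

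Genes that work beside carboxylesterases were counted from lists of related functions. Other enzymes that cleave neutral lipids, listed with Abhd5 and G0s2, which regulate the lipase Pnpla2, were mixed, with 2 of 15 higher and 4 lower against vehicle at a median log2FC of -0.06. Abhd5, a co-activator of Pnpla2, was among the 4 lower genes, at -0.19. Lipc, the hepatic lipase, rose by 0.72 ± 0.09 (adjusted p = 2.97e-14, DESeq2), whereas Lpl, lipoprotein lipase, fell by 1.66 on the log2 scale (adjusted p = 1.82e-09, DESeq2) and Lipa, the lysosomal acid lipase, fell by 0.39 (adjusted p = 1.11e-06, DESeq2). Of 11 genes of VLDL assembly and triacylglycerol supply, 4 were higher and 0 lower, with a median of 0.13. They were led by Dgat2, which makes triacylglycerol, at 0.54 ± 0.12 (adjusted p = 6.86e-05, DESeq2), Tm6sf2, needed for VLDL lipidation, at 0.53 ± 0.12 (adjusted p = 7.93e-05, DESeq2) and Sar1b, a small GTPase of vesicle export, at 0.22 ± 0.06 (adjusted p = 0.000689, DESeq2).

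Among 10 other esterases and hydrolases of foreign compounds, 4 were higher and 3 lower against vehicle (median 0.11). Pon1, the secreted paraoxonase, rose by 0.56 ± 0.09 (adjusted p = 5.86e-08, DESeq2), Afmid, a kynurenine formamidase, rose by 0.73 ± 0.19 (adjusted p = 0.000870, DESeq2), and Ephx1, the microsomal epoxide hydrolase, fell by 0.60 on the log2 scale (adjusted p = 3.76e-07, DESeq2). Of 12 nuclear receptors and other regulators of liver metabolism, 7 were higher and 1 was lower, with a median of 0.24. The lowest adjusted p-values were those of Hnf4a, a hepatocyte transcription factor, at 0.54 ± 0.06 (adjusted p = 3.93e-15, DESeq2), Nr1h3, the oxysterol receptor LXR alpha, at 0.23 ± 0.05 (adjusted p = 4.56e-05, DESeq2) and Nfe2l2, the regulator of the oxidative stress response, at -0.41 ± 0.10 (adjusted p = 0.000241, DESeq2).

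Of 8 endoplasmic reticulum genes, 0 were higher and 2 were lower by DESeq2, with a median of 0.11. Gusb encodes beta-glucuronidase, the partner that Ces1e holds in the endoplasmic reticulum, and its mean went from 909 in vehicle and 889 in pair-fed to 610 in GDF15 livers, a log2FC of -0.58 ± 0.06 (adjusted p = 1.42e-22, DESeq2), while Ces1e had 0.08 ± 0.13. Kdelr3, a receptor that returns proteins to the endoplasmic reticulum, was also lower, at means of 15.7 in vehicle and 3.32 in GDF15 livers.

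The genes whose pattern was most like that of Ces1c were sought among 10871 genes outside the family whose normalized count averaged 50 or more, over the 18 samples on the log2 scale with 1 added. Cyp2c68, a cytochrome P450, came first with a Pearson r of 0.97, followed by Rdh16f2, a retinol dehydrogenase family member, at 0.97. Much of such a correlation is the shared difference between groups: with the group means taken out, r was 0.83 and 0.79, over samples that share library and scaling. Mean normalized counts of Cyp2c68 were 2765 in vehicle, 2821 in pair-fed and 4886 in GDF15 livers, and those of Rdh16f2 were 1058, 1111 and 3133.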

How the data were processed

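Liver RNA from 18 mice (6 per group) was sequenced in paired reads. Per the labels and methods, the authors used Trim Galore for trimming and Salmon (mm10) for transcript quantification, and they deposited estimated counts per gene as whole numbers, without normalization. Versions, and how transcripts were summed to genes, are not given in the sources used here. Salmon divides reads shared by similar transcripts, which can move counts between members. All 16245 genes were fitted in DESeq2 1.42.0 (R 4.3.3; median-of-ratios size factors, Wald test, independent filtering at 0.05) with group as the only term. The script was tested on simulated counts with known changes. The members are far above a floor of 3 counts (at most 0.182 CPM), so counting error is minor for them. Nothing in the labels says that samples of a group came from separate experiments, so p-values measure the spread between these samples. Alternatives were edgeR 4.0.16 with TMM, other scalings, filters, a replicate block and sets of samples. Transcript lengths and coding bases came from GENCODE M21 and promoters from RefSeq. The members, gene lists and tests were chosen with earlier results of these data known. All members were named, as was every other carboxylesterase gene, up to 3 genes of each further list by lowest adjusted p in GDF15 against vehicle, Gusb, and the 3 genes most like the member of lowest adjusted p, of which 1 is not reported here. The summed pairs of near-identical genes and the sum of Ces1d, Ces1e, Ces1f and Ces1g were added after the values were seen. Ces5a was not analysed here.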

Additional observations from a re-analysis of the deposited data

How the results depend on the processing

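Single members were compared across alternatives by direction only where the value passed in the reported or the alternative fit. Of 810 alternative values of single members, 780 stayed on the same side of the threshold (750 with the same sign and 30 that did not pass in either fit with another sign), 15 lost the call in the same direction, 9 gained it in the same direction, and 6 turned sign with a call gained or lost. The 810 include pair-fed against vehicle, where no member passed in any fit. They also include 18 fits that leave out 1 sample, at times from a group not compared, so little could change in many of them. edgeR with TMM, TMM size factors, the low-count filter, no independent filtering and fits on 12 samples kept every count of members. With replicates 1 to 3 or 4 to 6 only, 3 members differed against vehicle in each set, in place of 5, where 3 samples per group also make the test weaker. Of all genes tested, 3007 of 13710 and 2588 of 13704 differed in these sets, in place of 4885 of 14667. The members of replicates 1 to 3 were Ces1b, Ces1c and Ces2a. The members of replicates 4 to 6 were Ces1c, Ces2a and Ces1g, which was lower at -0.46 and is not among the 5. Replicates 4 to 6 left 0 members past both thresholds against vehicle, and replicates 1 to 3 gave 1 against pair-fed. In these 2 fits 663 of 13704 and 534 of 13081 genes passed both. Leaving out 1 sample at a time gave from 0 to 1 members past both thresholds against vehicle. Hepatocyte-marker size factors gave 0 members past both thresholds against vehicle and, against pair-fed, 8 different and 1 past both (67.2% of all genes, and 1909 of 15928 genes); values that passed on that scale with the sign turned were Ces1e at -0.36 and Ces1f at -0.28 against vehicle and -0.43 and -0.39 against pair-fed, and Ces3a against vehicle lost its call at -0.0715. Ces1d against pair-fed turned to 0.47 in replicates 1 to 3. On the same scaling the log2 difference of the summed levels against vehicle was 0.114 for Ces1, -0.352 for Ces2 and 0.0319 for all 10, and against pair-fed 0.0116, -0.464 and -0.102, in place of 0.56, 0.10, 0.48, 0.50, 0.03 and 0.39. Scaling to the library total (CPM) gave 0.40 for Ces1 and 0.31 for all 10 against vehicle and 0.23 for all 10 against pair-fed. The cause of these shifts was not tested. The replicate numbers were not taken to pair the samples, since in no comparison were all correlations of same-numbered samples above 0.1: their mean was -0.05 for GDF15 and vehicle, 0.03 for GDF15 and pair-fed and 0.21 for pair-fed and vehicle, against 0.01, -0.01 and -0.04 for other numbers, with a lowest value of 0.03 for pair-fed and vehicle. In no comparison did every sample correlate best with its own number. With the replicate block, 6 members differed against vehicle, since Ces2c passed at -0.48, 5 against pair-fed and 0 between the controls. Of all genes tested, 4511 of 14670, 3736 of 14040 and 3 of 16245 differed in the same order.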
